A study of Mus musculus with 24 samples.

Results

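The comparison described here is the difference between the effect of Setd1a knockout in stem cells and its effect in transit-amplifying (TA) cells of the small intestinal crypt. It is the difference hom minus het in stem cells minus the difference hom minus het in TA cells. It rests on 16 of the 24 libraries of the study, 1 stem and 1 TA library from each of 8 mice, which were chosen by the sorted fraction and genotype in their labels. The groups were hom stem, het stem, hom TA and het TA cells, with 4 libraries each. The hom (knockout) mice were Setd1aFC/FC; Lgr5-eGFP-CreERT2, and the het (control) mice were Setd1aFC/+; Lgr5-eGFP-CreERT2. All 8 animals therefore carried Cre and at least 1 conditional Setd1a allele, and all received 1 mg tamoxifen by intraperitoneal injection on 3 consecutive days, with cells taken 4 days after induction. Age and strain are not given in the labels. Live cells were sorted with antibodies against EpCAM, CD24 and CD45. The Cre transgene is driven from the Lgr5 locus, which is active in stem cells, and the share of recombined cells was not measured in either fraction. Values per animal are given in the order BN45, BO25, BO57 and BP04 for hom mice and BN44, BO27, BO58 and BP03 for het mice.

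Setd1a encodes the catalytic subunit of a COMPASS complex, which methylates lysine 4 of histone H3 at active promoters. Its partner Cxxc1 binds unmethylated CG dinucleotides, which are dense in the promoters of many widely expressed genes. Lgr5-positive stem cells at the crypt base divide and give rise to TA cells, which divide several times as they move up the crypt and then differentiate. Stem cells are maintained by Wnt and Notch signals, and the secretory and absorptive lineages separate among TA cells.

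The sorted fractions were checked by their markers. The R-spondin receptor gene Lgr5 stood at 232 ± 18.03 CPM (counts scaled to library size by TMM) in hom stem and 180.5 ± 16.9 CPM in het stem libraries. The TA libraries held 16.1 ± 2.66 CPM in hom and 9.58 ± 3.93 CPM in het animals (mean ± SD, n = 4 each). The summed level of 32 stem cell markers was 39664 to 56091 CPM in hom stem and 34419 to 42069 CPM in het stem libraries, against 8776 to 13124 CPM in hom TA and 6634 to 11081 CPM in het TA libraries. This sum may rest mostly on Olfm4 and is not an agreement of 32 markers. The list of Notch pathway genes, which also holds Olfm4, summed to 32925 to 49453 CPM in hom stem and 28744 to 36544 CPM in het stem libraries. Library totals ran from 26.6 to 47.1 M counts. Mitochondrially encoded genes took 16.1 ± 2.72% of counts in hom stem, 13.97 ± 2.69% in het stem, 13.9 ± 1.75% in hom TA and 12.5 ± 0.94% in het TA libraries (n = 4 each). Within animals, the stem minus TA difference in this mitochondrial share was 2.18 ± 1.32 percentage points in hom and 1.46 ± 2.27 in het mice (SD, n = 4 each; exact permutation test, two-sided, p = 0.571, adjusted over 4 measures 0.657). The same exact permutation test gave p = 0.60 for log2 total counts, 0.257 for the share of the 10 most abundant genes and 0.657 for the number of genes with at least 10 counts, each with an adjusted p of 0.657. The smallest p that 4 against 4 animals allow is 0.0286.

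Promoter sequences of 2 genes in each direction of the difference, those of smallest p with an entry, are shown because COMPASS acts at CG-rich promoters. They run from 250 bases before to 50 bases after the RefSeq start of transcription, 5′ to 3′ on the gene's strand, with each CG in capitals. On GRCm38.p6 they lie at chr16:32332002-32332301 (Ubxn7, plus strand), chr10:83543691-83543990 (Washc4, plus strand), chr17:33824322-33824621 (Ndufa7, plus strand) and chr4:34778317-34778616 (Smim8, minus strand). Ubxn7 and Washc4 had a positive difference, Ndufa7 and Smim8 a negative one.
Ubxn7: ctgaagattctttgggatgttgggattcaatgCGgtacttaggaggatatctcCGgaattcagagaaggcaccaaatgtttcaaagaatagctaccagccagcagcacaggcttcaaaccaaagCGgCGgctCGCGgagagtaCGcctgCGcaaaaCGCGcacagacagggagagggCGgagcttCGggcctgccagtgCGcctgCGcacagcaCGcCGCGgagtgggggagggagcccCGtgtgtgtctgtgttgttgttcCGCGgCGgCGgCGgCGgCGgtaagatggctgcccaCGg
Washc4: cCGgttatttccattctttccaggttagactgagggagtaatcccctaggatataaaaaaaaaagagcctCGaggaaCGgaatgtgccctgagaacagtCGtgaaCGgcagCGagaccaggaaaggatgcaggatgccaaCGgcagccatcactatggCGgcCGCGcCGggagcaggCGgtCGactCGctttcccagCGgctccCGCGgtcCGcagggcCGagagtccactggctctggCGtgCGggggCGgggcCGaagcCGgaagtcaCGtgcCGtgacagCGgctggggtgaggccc
Ndufa7: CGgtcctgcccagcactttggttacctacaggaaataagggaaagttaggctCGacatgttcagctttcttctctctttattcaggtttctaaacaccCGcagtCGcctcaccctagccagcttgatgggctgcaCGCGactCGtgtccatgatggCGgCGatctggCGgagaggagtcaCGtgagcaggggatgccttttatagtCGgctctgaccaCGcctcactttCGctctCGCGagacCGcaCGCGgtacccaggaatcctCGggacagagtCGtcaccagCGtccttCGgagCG
Smim8: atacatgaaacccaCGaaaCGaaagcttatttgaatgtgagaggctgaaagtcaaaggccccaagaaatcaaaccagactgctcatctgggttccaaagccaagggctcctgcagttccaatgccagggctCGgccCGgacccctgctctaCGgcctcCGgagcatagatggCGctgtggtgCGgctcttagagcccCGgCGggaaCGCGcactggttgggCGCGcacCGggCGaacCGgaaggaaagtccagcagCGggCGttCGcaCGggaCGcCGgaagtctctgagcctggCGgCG
The motif searched was CG, which reads the same on both strands. The windows hold 26, 27, 24 and 25 CG in that order, against a median of 7 over the 32851 promoter windows of the same length, of which 94.6% hold at least 1. As many or more were found in 16.9%, 15.5%, 20.0% and 18.4% of all windows. These windows are not restricted to the genes tested for the difference, so the median is not that of expressed genes. Both directions were CG-dense in these examples, and a CG count is a description of sequence, not of binding. Of the 24 leading genes named below, 18 had an entry.

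No gene passed the threshold for the difference between the stem and TA effects of the knockout. Of 17777 genes tested with the edgeR quasi-likelihood test with the animal as a block, 0 (0%) had a Benjamini-Hochberg adjusted p below 0.05, and the smallest adjusted p was 0.214. At an unadjusted p below 0.05 there were 1622 genes, of which 702 (3.95% of genes tested) had a positive difference and 920 (5.18%) a negative one. The 4 hom stem minus TA differences lay all above the 4 het ones for 427 genes (2.40%) and all below them for 817 genes (4.60%). The limma fits on voom values and on differences per animal also called 0 genes, whereas DESeq2 with the same block called 111 genes with a positive and 235 with a negative difference. The median over all genes was -0.01 on the log2 scale. A gene described below is therefore given by its values, and none is said to have passed. Standard errors were taken as the log2 difference divided by the square root of its F value.

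The 12 leading genes with a negative difference were Ndufa7, Naa38, Smim8, Ryk, Ubl5, Nop10, Rps15a, Mrpl52, Rpl32, Tomm7, Cox6c and Ndufc1. Their log2 differences ran from -1.08 to -0.66, all with an edgeR adjusted p of 0.214. In all 12 the 4 hom differences lay below the 4 het ones, which is what the ranking by p selects. Of the 12, 7 have an annotated transcript length of 800 bases or less, with a median of 747 over the 12 and of 2099.5 over all genes tested. Ryk, a Wnt receptor of the receptor tyrosine kinase family, has 2678.5 bases.

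**Figure D1:**
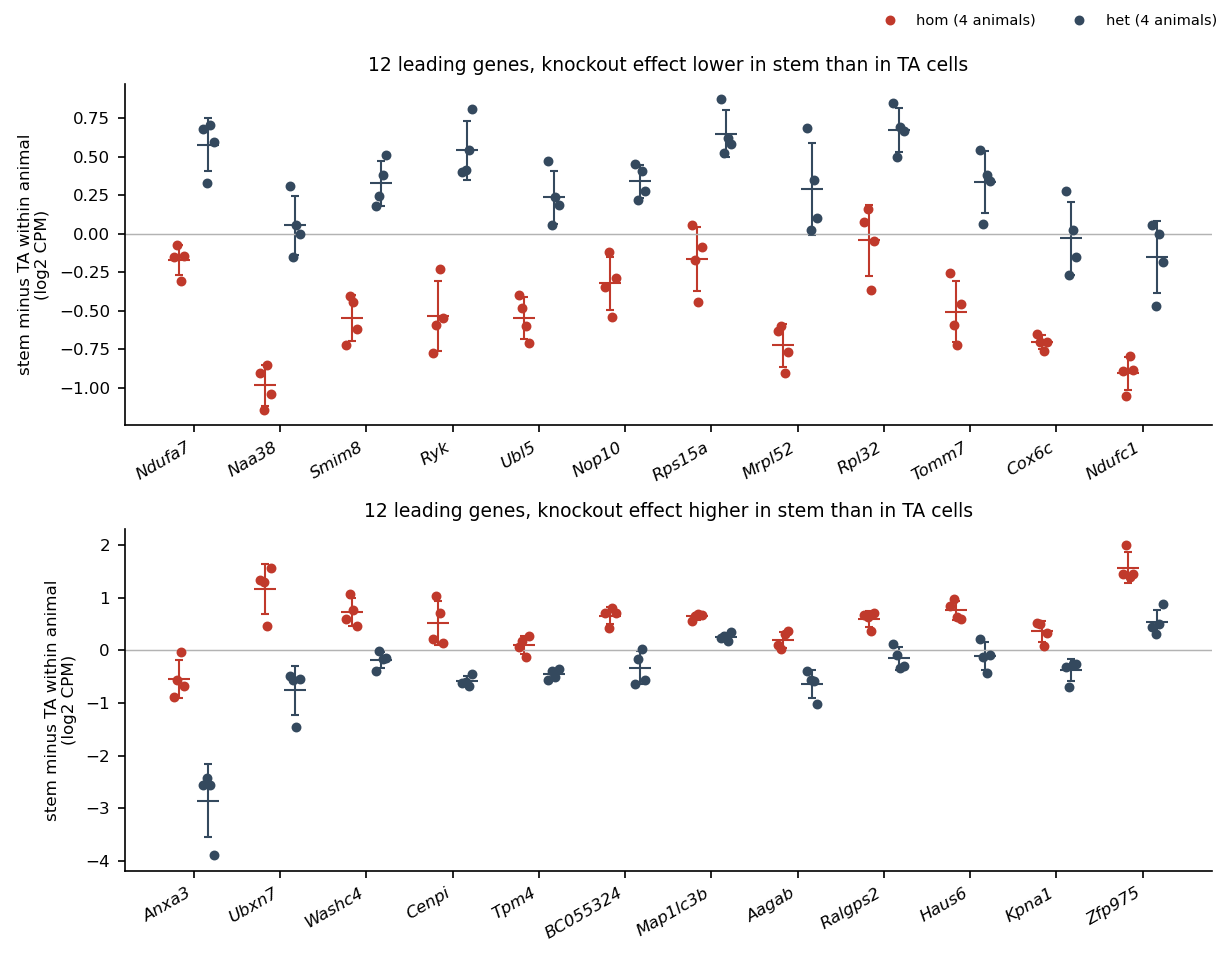
Stem minus TA difference within each animal (log2 CPM) for the 12 leading genes with a negative difference (top) and the 12 with a positive one (bottom), as points for 4 hom (red) and 4 het (dark) animals with mean ± SD. The hom and het points of each gene do not overlap, which the ranking by p favours.

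Ndufa7, an accessory subunit of respiratory complex I (chromosome 17, 33824572 to 33838317, mm10), had the smallest p. It stood at 73.5, 107, 134 and 154 CPM in hom stem and 187, 217, 221 and 198 CPM in het stem libraries. The TA libraries held 81.7, 112, 166 and 171 CPM in hom and 117, 173, 136 and 131 CPM in het animals. Every hom stem library was below every het stem library, while the TA libraries of the 2 genotypes overlapped. The log2 difference was -0.75 (SE 0.11, edgeR adjusted p = 0.214).

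Rpl32, a protein of the large ribosomal subunit (chromosome 6, 115805505 to 115808747), showed the other form of a negative difference. It stood at 958, 1523, 957 and 1095 CPM in hom stem and 1239.6, 1303, 1403 and 1047 CPM in het stem libraries, which overlapped. Its TA levels were 907, 1364, 1231 and 1131 CPM in hom and 689.5, 924, 868 and 659.8 CPM in het animals. Here the TA libraries made most of the difference, with a log2 value of 0.56 for hom minus het in TA and -0.14 in stem cells, both from the fit without the animal block. The log2 difference was -0.72 (SE 0.13, adjusted p = 0.214). Cox6c, a subunit of cytochrome c oxidase, stood at 336 ± 34.2 CPM in hom stem and 404 ± 55.2 in het stem libraries, and at 548 ± 58.0 in hom TA and 411 ± 26.8 in het TA libraries (n = 4 each).

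Ryk resembled Cox6c in form despite its longer transcript. It stood at 18.8, 23.7, 29.5 and 32.3 CPM in hom stem and 30.4, 33.8, 34.3 and 39.8 CPM in het stem libraries. Among TA libraries it had 32.1, 35.7, 34.5 and 47.2 CPM in hom and 23.1, 25.4, 23.5 and 22.7 CPM in het animals, without overlap. Its difference of -1.08 (SE 0.17) was -1.18 after a correction for transcript length and GC content. Naa38, an auxiliary subunit of an N-terminal acetyltransferase, and Smim8 had lower mean levels in hom than in het libraries of both fractions. Naa38 stood at 13.4 ± 4.20 CPM in hom stem and 34.5 ± 3.50 in het stem libraries, and at 26.5 ± 7.62 in hom TA and 33.6 ± 6.15 in het TA libraries (n = 4 each).

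The 12 leading genes with a positive difference were Anxa3, Ubxn7, Washc4, Cenpi, Tpm4, BC055324, Map1lc3b, Aagab, Ralgps2, Haus6, Kpna1 and Zfp975. Their log2 differences ran from 0.39 to 2.32, with edgeR adjusted p from 0.214 to 0.219, and again no hom difference overlapped a het one. None of the 12 has a transcript of 800 bases or less, and their median length was 3177. They share no single role. Cenpi is a kinetochore protein and Haus6 a subunit of augmin, which nucleates spindle microtubules, while Washc4 belongs to the WASH complex of endosomes and Map1lc3b to autophagosomes. In 11 of these 12 genes the effects of the knockout in stem and in TA cells had opposite signs, against 8 of the 12 with a negative difference. The ranking by the p of the difference favours opposite signs, and the share over all genes is not given here. An effect near 0 also counts, such as that of Anxa3 in TA cells at -0.09 (SE 0.26).

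Anxa3 (chromosome 5, 96793339 to 96845966), an annexin that binds membranes in the presence of calcium, had the largest difference among the 24. It stood at 8.0, 10.1, 10.4 and 7.49 CPM in hom stem and 2.80, 2.27, 1.75 and 1.04 CPM in het stem libraries. TA libraries gave 14.8, 15.0, 10.7 and 12.1 CPM in hom and 16.8, 12.4, 10.6 and 16.3 CPM in het animals. The stem libraries did not overlap and the TA libraries did. The log2 difference was 2.32 (SE 0.38, edgeR adjusted p = 0.214), made of 2.18 in stem and -0.09 in TA cells.

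Ubxn7, a cofactor of the p97 segregase, stood at 19.7, 11.4, 13.9 and 19.4 CPM in hom stem and 12.3, 5.55, 4.27 and 8.43 CPM in het stem libraries. The values in TA cells were 7.76, 4.64, 10.1 and 6.56 CPM in hom and 17.3, 8.22, 11.8 and 12.3 CPM in het animals. The groups overlapped within each fraction, and they separated once each animal's TA value was subtracted from its stem value. The hom differences were 1.34, 1.29, 0.46 and 1.55, against -0.49, -0.56, -1.45 and -0.54 in het mice (log2). Kpna1, an importin alpha gene, stood at 78.4 ± 12.8 CPM in hom stem and 49.6 ± 8.99 in het stem libraries, and at 61.4 ± 12.2 in hom TA and 64.4 ± 10.2 in het TA libraries (n = 4 each).

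The difference varied with transcript length across the genome. Protein-coding genes with transcripts of up to 600 bases (n = 286) had a median log2 difference of -0.53, and 81.8% of them were below 0. The median was -0.22 for over 600 to 800 bases (n = 408), -0.09 for over 800 to 1000 bases (n = 480) and 0.02 for over 1000 to 1500 bases. It was 0.10 both for over 1500 to 2000 and for over 2000 to 3000 bases, 0.03 for over 3000 to 5000 bases, and -0.03 above 5000 bases. Medians below -0.10 were found only in the 2 shortest of the 8 bins.

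In the shortest bin the knockout effect was negative in stem cells and positive in TA cells, with medians of -0.20 and 0.31. The bin's median stem minus TA difference was -0.32, -0.15, -0.38 and -0.24 in hom animals and 0.37, -0.00033, 0.25 and 0.27 in het animals (log2), and the genotypes did not overlap. It ran from -0.61 to -0.45 when each animal was left out in turn. Of the 286 genes, 233 were in none of the lists of cytosolic ribosomal, mitochondrial ribosomal and oxidative phosphorylation genes, and their median was -0.50. At an unadjusted p below 0.05, 35.7% of the bin had a negative difference, against 5.18% of all genes tested.

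A share of counts was also taken over genes of every type, pseudogenes and noncoding genes included, and so not over the protein-coding bin alone. The part of pseudogenes in this share was not tested. Measured as a share of all counts outside mitochondrially encoded genes, transcripts of up to 600 bases took 5.45, 7.45, 6.80 and 7.47% in hom stem and 7.12, 7.58, 8.48 and 7.54% in het stem libraries. In TA libraries they took 7.52, 9.20, 8.97 and 9.05% in hom and 5.99, 8.14, 7.52 and 7.11% in het animals. Within animals the stem minus TA difference was -2.06, -1.75, -2.16 and -1.58 percentage points in hom and 1.13, -0.56, 0.96 and 0.44 in het mice. The length of fragments and the integrity of RNA were not measured here, and the part of library preparation in this trend was not tested.

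**Figure D2:**
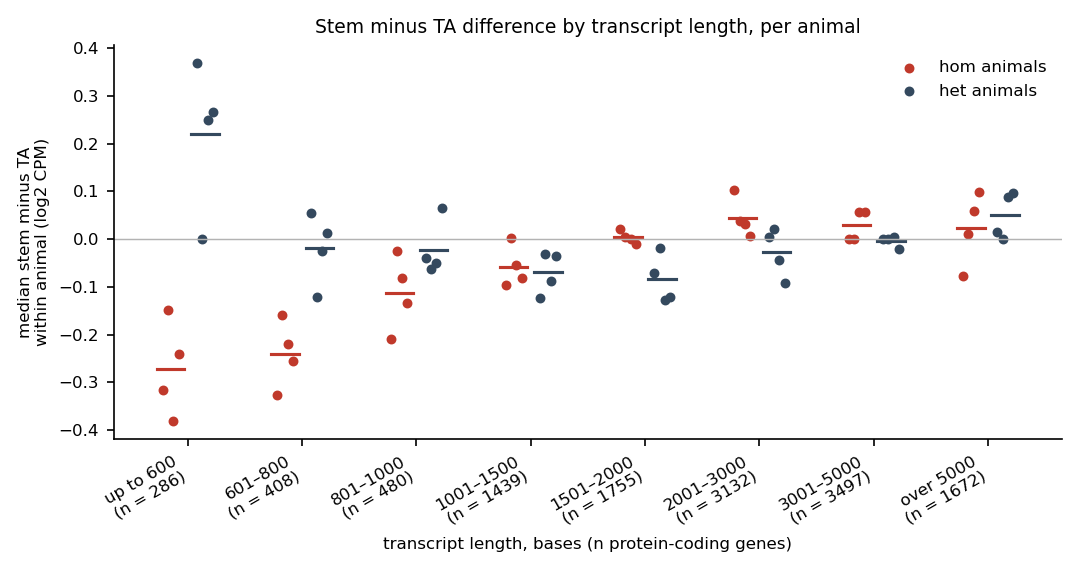
Median stem minus TA difference (log2 CPM) of protein-coding genes in 8 bins of transcript length, as points for hom (red) and het (dark) animals, with bars at the mean of 4. The genotypes are farthest apart in the bin of up to 600 bases, between -0.38 and -0.15 in hom and between -0.00033 and 0.37 in het animals, and the next bin does not overlap either.

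Cytosolic ribosomal protein genes shared the negative sign. Of 82 genes tested, 77 had a negative difference, where 49.2% of all genes tested were above 0. Of these, 45 were at an unadjusted p below 0.05 (5.18% over all genes). In 38 the 4 hom values lay below the 4 het ones, against 4.60% of all genes. None passed the edgeR threshold, and the list's median was -0.40, against -0.01 over all genes. It was made of a median of -0.18 in stem cells and 0.23 in TA cells. The small subunit (32 genes, median -0.46) and the large subunit (48 genes, median -0.36) were alike in sign. Rplp1, an acidic stalk protein of the large subunit, stood at 243 ± 43.8 CPM in hom stem and 328 ± 81.3 in het stem libraries, and at 287 ± 39.9 in hom TA and 205 ± 28.5 in het TA libraries (log2 difference -0.90, SE 0.16, adjusted p = 0.214; n = 4 each). The 5 genes with a positive value, named after their values were seen, were Rpl10, Rps2, Rpl5, Rps10 and Rpl15, at 0.06 to 0.20.

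**Figure D3:**
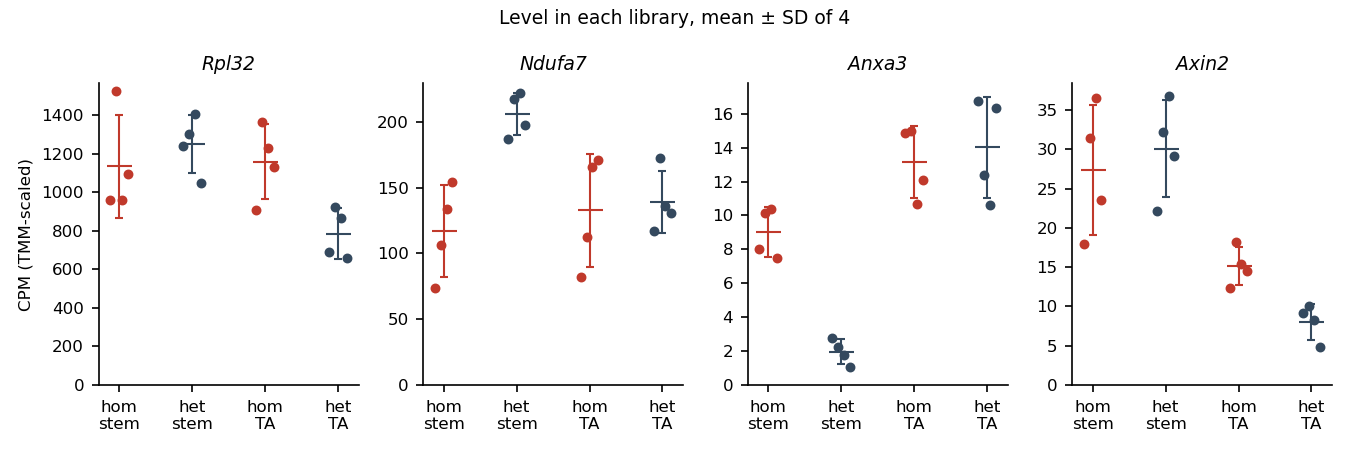
Level (CPM, scaled by TMM) of Rpl32, Ndufa7, Anxa3 and Axin2 in each library of hom stem, het stem, hom TA and het TA cells, with mean ± SD of 4. Rpl32 and Axin2 differ between genotypes mainly in TA cells, and Ndufa7 and Anxa3 mainly in stem cells.

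Length moved with this list. Ribosomal genes of up to 600 bases had a median of -0.60 (n = 24), those of over 600 to 800 bases -0.34 (n = 22) and the longer ones -0.29 (n = 36), of which 32 were negative. After the correction for length and GC content the list's median was -0.22, with 15 of 82 positive. The correction left part of the length trend: all protein-coding genes of up to 600 bases still had a median of -0.15. Corrected values of short genes are therefore not free of length. Counts of ribosomal protein genes are uncertain, because their many processed pseudogenes share sequence with them. Pseudogenes took 8.06 ± 0.38% of counts in hom stem and 9.02 ± 0.45% in het stem libraries, and 8.29 ± 0.36% in hom TA and 7.92 ± 0.28% in het TA libraries (n = 4 each). Within animals this share differed by 0.21, 0.31, -0.89 and -0.56 percentage points in hom and 1.43, 0.98, 1.17 and 0.80 in het mice, stem minus TA, and its part in the ribosomal values was not tested.

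Nuclear genes of oxidative phosphorylation had a median difference of -0.32, with 55 of 73 negative. Of these, 38 were at an unadjusted p below 0.05 (5.18% over all genes), and 3 others were positive at that level (3.95% over all genes). In 33 the hom values lay below the het ones without overlap (4.60% over all genes). By complex, all 10 nuclear subunits of complex IV were negative, with a median of -0.55, and 28 of 36 subunits of complex I, with a median of -0.32. Complex II had 1 of 4 negative and a median of 0.08. Within complex III the small subunits Uqcrb and Uqcrh stood at -0.58 and -0.56, and the core proteins Uqcrc1 and Uqcrc2 at 0.39 and 0.11, a pair chosen after their values were seen.

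Values also varied with length within this list. Genes of up to 600 bases had a median of -0.56 (25 of 25 negative), those of over 600 to 800 bases -0.41 (16 of 16) and the longer ones 0.02 (14 of 32). With the correction for length and GC content, which left part of the length trend, the list's median was -0.12. Mitochondrial ribosomal proteins had a median of -0.10 (25 of 77 positive), or -0.06 after the correction. Translation factors had a median of -0.02 (13 of 35 positive), and of -0.12 after the correction (12 of 35 positive), the same as oxidative phosphorylation genes. Mrpl11, of the large mitochondrial ribosomal subunit, was low in hom libraries of both fractions, at 23.7 ± 10.1 CPM in hom stem against 74.2 ± 15.1 in het stem, and 41.8 ± 21.7 in hom TA against 81.7 ± 19.7 in het TA libraries (log2 difference -0.63, SE 0.14, adjusted p = 0.219; n = 4 each).

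Genes of the unfolded protein and integrated stress response had mostly positive differences. Of 26 tested, 23 were positive, 8 of them at an unadjusted p below 0.05 (3.95% over all genes), and in 6 the hom values lay above the het ones without overlap (2.40% over all genes). The list's median was 0.29, or 0.24 after the correction for length and GC content. Within fractions, the knockout effect had a median of 0.06 in stem and -0.16 in TA cells. These genes had lower levels in stem than in TA cells in both genotypes, with the smaller gap in hom mice: the list median was -0.38, -0.46, -0.27 and -0.32 in hom and -0.56, -0.65, -0.65 and -0.83 in het animals. The genotypes did not overlap.

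Creld2, a protein of the endoplasmic reticulum induced by unfolded proteins, stood at 61.6, 50.5, 63.6 and 56.4 CPM in hom stem and 52.8, 33.3, 57.3 and 58.3 CPM in het stem libraries. Levels in TA cells were 95.1, 71.6, 75.5 and 79.8 CPM in hom and 109, 80.5, 106 and 109.9 CPM in het animals. Hom and het differences did not overlap (log2 difference 0.56, SE 0.13, adjusted p = 0.227). Dnajc3, a co-chaperone that restrains PERK, stood at 87.7 ± 12.6 CPM in hom stem and 91.0 ± 16.4 in het stem libraries, and at 137 ± 3.40 in hom TA and 193 ± 33.8 in het TA libraries (0.43, SE 0.11, adjusted p = 0.25). Ero1l, an oxidase of disulfide bond formation, had a difference of 0.61 (SE 0.16, adjusted p = 0.258; n = 4 in each group).

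S phase genes had positive differences in 45 of 50, 6 of them at an unadjusted p below 0.05 (3.95% over all genes), with a median of 0.21 and of 0.14 after the correction. Without hom animal BO25 the median was 0.12. The knockout effect had a median of 0.05 in stem and -0.18 in TA cells, where 44 of the 50 were not positive. The share of all genes without a positive effect in TA cells is not given here. Pola2, a subunit of DNA polymerase alpha, stood at 58.9, 46.0, 48.2 and 39.1 CPM in hom stem and 56.9, 40.3, 36.4 and 28.1 CPM in het stem libraries. The TA fraction had 38.6, 26.2, 27.3 and 22.1 CPM in hom and 51.4, 32.6, 37.0 and 40.1 CPM in het animals. The stem minus TA differences were 0.61, 0.81, 0.82 and 0.82 in hom and 0.15, 0.30, -0.03 and -0.52 in het mice (log2 difference 0.79, SE 0.19, adjusted p = 0.23). Rrm1, the large subunit of ribonucleotide reductase, had a difference of 0.55 (SE 0.15, adjusted p = 0.282). Genes of G2 and mitosis had positive differences in 31 of 52 and a median of 0.07, with 5 positive and 1 negative at an unadjusted p below 0.05 (3.95% and 5.18% over all genes). The members of smallest p were the kinesin gene Kif22 at 0.47 (SE 0.15, adjusted p = 0.366), the cyclin gene Ccna2 at 0.42 (SE 0.14, adjusted p = 0.367) and the kinesin gene Kif20a at 0.44 (SE 0.17, adjusted p = 0.474). Mki67, a marker of cycling cells, had a difference of -0.24 (SE 0.14, adjusted p = 0.656).

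**Figure D4:**
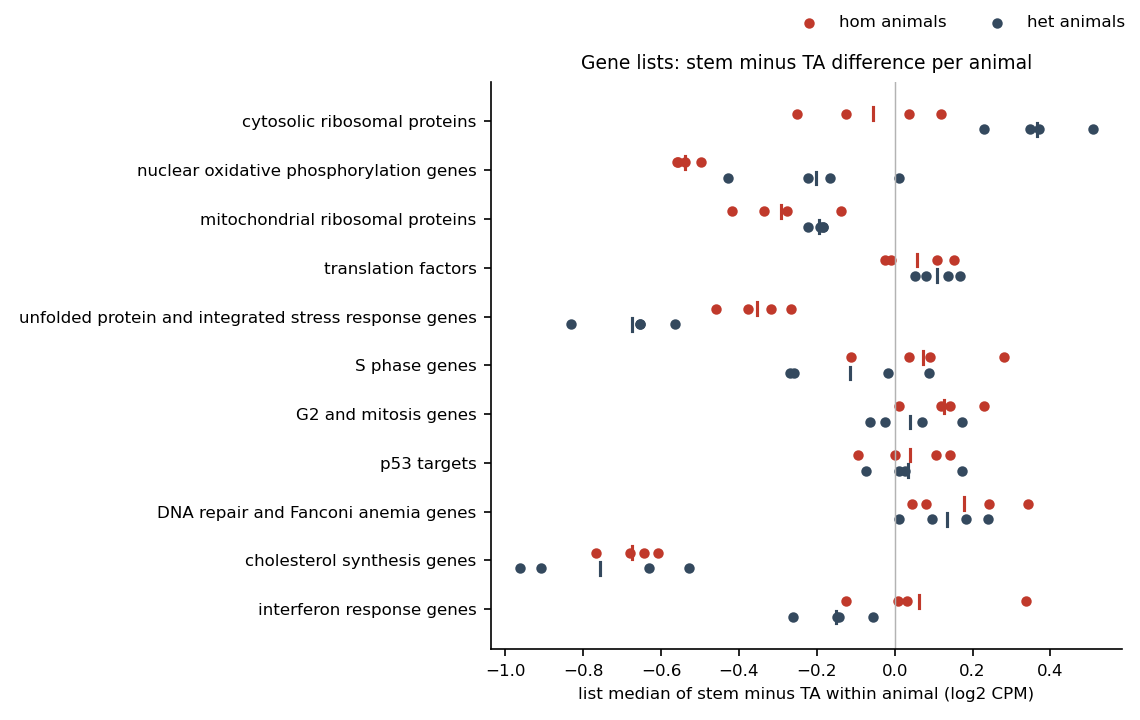
Median stem minus TA difference (log2 CPM) of 11 gene lists in each hom (red) and het (dark) animal, with bars at the mean of 4. The genotypes separate for ribosomal proteins, oxidative phosphorylation and the unfolded protein response, and overlap in the other 8 lists.

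Stem cell markers had mostly negative differences. Of 32 stem markers 23 were negative, 4 of them at an unadjusted p below 0.05 (5.18% over all genes) and 2 without overlap (4.60% over all genes), with a median of -0.28. Per animal, the median stem minus TA difference of these markers was 1.23, 1.49, 1.51 and 1.59 in hom and 1.40, 1.63, 1.83 and 1.87 in het mice. The genotypes overlapped. Of 17 Wnt targets 10 were negative, where 49.2% of all genes tested were above 0, and 1 of them was at an unadjusted p below 0.05 (5.18% over all genes). The Wnt median was -0.34, and it ran from -0.34 to -0.15 when each animal was left out in turn, the weakest without het animal BO58. It was -0.18, -0.20, -0.19 and -0.20 without BO25, BO27, BO57 and BP03. In TA cells 30 of the 32 stem markers had a higher fitted level in hom than in het mice, with a median of 0.34 against 0.11 in stem cells. The share of all genes with a higher level in hom TA cells is not given here. The medians of both lists shrank to -0.16 and -0.15 without the het animals BO27 and BP03. Lgr5, Ascl2, Axin2 and several other genes are in both lists, so the lists are not independent. The Wnt target at an unadjusted p below 0.05 was Axin2, which is also a stem marker. Both lists are made of genes more abundant in stem than in TA cells, and the share of stem cells in the TA sort was not measured. In bulk libraries such as these, more cells of a type and more RNA per cell cannot be told apart.

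Axin2 (chromosome 11, 108920349 to 108950783), a negative regulator and target of Wnt signalling, stood at 17.96, 31.4, 36.5 and 23.6 CPM in hom stem and 22.1, 32.2, 36.8 and 29.1 CPM in het stem libraries. The TA libraries held 12.3, 18.1, 15.4 and 14.5 CPM in hom and 9.14, 10.0, 8.23 and 4.82 CPM in het animals. The stem libraries overlapped and the TA libraries did not. Its stem minus TA difference was 0.54, 0.79, 1.24 and 0.70 in hom and 1.27, 1.68, 2.15 and 2.58 in het mice, again without overlap (log2 difference -1.11, SE 0.30, adjusted p = 0.273). Afap1l1, another stem marker, had a difference of -1.31 (SE 0.39, adjusted p = 0.314), and Rgmb, a BMP co-receptor, of -0.38 (SE 0.15, adjusted p = 0.464). Lgr5 itself had -0.46 (SE 0.31, adjusted p = 0.74), the basic helix-loop-helix factor Ascl2 -0.34 (SE 0.21, adjusted p = 0.704) and Olfm4, an abundant secreted glycoprotein, -0.04 (SE 0.13, adjusted p = 0.964). Notch pathway genes were close to even, with 13 of 24 positive and a median of 0.12.

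Genes of the fetal-like or regenerative crypt state had positive differences in 10 of 14 tested, of 20 listed. In 5 the hom values lay above the het ones (2.40% over all genes), Anxa3 among them. None of the 14 passed, and the list median was 0.71, or 0.42 without hom animal BO57. Per animal, the list's median stem minus TA difference was -0.18, 0.73, 0.08 and 0.58 in hom and 0.32, 0.03, -0.29 and -0.33 in het mice. These ranges overlapped. Cldn8, a tight junction claudin, stood at 42.1, 32.8, 39.7 and 51.9 CPM in hom stem and 7.64, 11.01, 17.1 and 15.0 CPM in het stem libraries. Its TA levels were 19.5, 10.7, 19.0 and 12.6 CPM in hom and 4.03, 10.6, 9.21 and 23.8 CPM in het animals. Only the stem libraries were free of overlap, and the difference was 1.16 (SE 0.39, adjusted p = 0.387), or 0.54 without BO27 and BP03. Anxa2 had a difference of 0.60 (SE 0.16, adjusted p = 0.252). Clu, the clusterin gene that marks revival stem cells, was at 19.5 ± 16.2 CPM in hom stem and 2.78 ± 2.67 in het stem libraries, and at 1.61 ± 1.95 in hom TA and 0.156 ± 0.193 in het TA libraries (difference 0.92, SE 1.95, adjusted p = 0.938; n = 4 each).

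Enterocyte markers had negative differences in 25 of 30, 9 of them at an unadjusted p below 0.05 (5.18% over all genes), with a median of -0.40. It was -0.18 without het animal BO27, -0.62 without het animal BO58 and -0.18 without both BO27 and BP03. Per animal, the list's median stem minus TA difference was -0.97, -1.80, -1.46 and -0.93 in hom and -0.47, -0.28, -1.67 and -0.56 in het mice, with overlap. Fabp1, the liver-type fatty acid binding protein of enterocytes, stood at 12.4, 8.203, 37.4 and 32.4 CPM in hom stem and 13.6, 212, 21.2 and 199 CPM in het stem libraries. Among TA libraries it had 191, 298, 263 and 311 CPM in hom and 39.1, 249, 133 and 332 CPM in het animals. The 2 high het stem values are those of BO27 and BP03. The log2 difference was -2.51 (SE 0.63, adjusted p = 0.24), and -1.69 without these 2 animals. Fabp2, the intestinal form, had a difference of -0.67 (SE 0.16, adjusted p = 0.222), with 244 ± 93.3 CPM in hom stem and 408 ± 162 in het stem libraries, and 672 ± 201 in hom TA and 701 ± 221 in het TA libraries (n = 4 each). Summed enterocyte markers ran from 2548 to 5119 CPM in hom stem and 2942 to 5773 in het stem libraries, and from 5991 to 13321 in hom TA and 7482 to 12721 in het TA libraries, with none of the 30 at 0 throughout.

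Setd1a itself, the targeted gene, had a difference smaller than its error. The log2 value was -0.28 (SE 0.36, adjusted p = 0.886), with mean levels of 5.94 CPM in hom stem, 6.45 in het stem, 6.06 in hom TA and 5.56 in het TA libraries. Counts sum all exons, so they do not check the deletion. Of 26 genes of COMPASS and of H3K4 demethylation, 18 had a negative difference and the median was -0.18, or -0.11 without BO58 and -0.09 without BP03. The X-linked H3K27 demethylase gene Kdm6a, a subunit of the related MLL3 and MLL4 complexes, had -0.51 (SE 0.21, adjusted p = 0.492), and the closest paralog, Setd1b, -0.31 (SE 0.18, adjusted p = 0.655).

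Some genes had fitted knockout effects of the same sign in both fractions. Cbr4, a reductase of mitochondrial fatty acid synthesis, stood at 5.56, 9.53, 8.13 and 5.76 CPM in hom stem and 36.4, 35.4, 37.6 and 29.4 CPM in het stem libraries. TA libraries gave 12.6, 9.42, 21.3 and 13.7 CPM in hom and 35.3, 37.1, 30.7 and 25.0 CPM in het animals. Hom libraries were below het libraries in both fractions, by -2.26 in stem and -1.17 in TA cells on the log2 scale. The difference was -1.08 (SE 0.31, edgeR adjusted p = 0.29), with animal BO25 at 0.02 among hom differences that were otherwise -1.38 to -1.17. Coq9, of coenzyme Q synthesis, had -0.92 in stem and -1.03 in TA cells and a difference of 0.12 (SE 0.14, adjusted p = 0.869). For Sdhc, of complex II, the values were -0.87, -0.66 and -0.20 (SE 0.11, adjusted p = 0.666), for Ndufv1, a core subunit of complex I, -0.67, -0.57 and -0.10 (SE 0.12, adjusted p = 0.875), and for Ephx1, the microsomal epoxide hydrolase, 1.21, 1.28 and -0.10 (SE 0.19, adjusted p = 0.929).

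Targets of p53 had no common sign, with 20 of 41 positive and a median of -0.05. Cdkn1a, the cell cycle inhibitor p21, had a difference of 0.56 (SE 0.30, adjusted p = 0.628) and Ccng1, cyclin G1, of 0.30 (SE 0.14, adjusted p = 0.576). Rps27l, a short p53 target related to a ribosomal protein, had -0.57 (SE 0.11, adjusted p = 0.214), with 338 ± 60.5 CPM in hom stem and 384 ± 43.6 in het stem libraries, and 513 ± 82.8 in hom TA and 396 ± 66.8 in het TA libraries (n = 4 each). With the correction for length and GC content, which left part of the length trend, its value was -0.22. Of 60 genes of DNA repair and the Fanconi anemia pathway, 33 were positive, with a median of 0.09.

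Markers of other cell types varied widely between libraries, and the ranges of both genotypes overlapped in each fraction. Summed Paneth markers (18) ran from 867 to 2929 CPM in hom stem and 663 to 2762 in het stem libraries, and from 896 to 1604 in hom TA, apart from BN45 at 6256, against 1092 to 1920 in het TA libraries. Lyz1, the Paneth lysozyme gene, had a difference of -0.29 (SE 0.95, adjusted p = 0.966). Summed goblet markers (12 tested of 13) ran from 153 to 1331 CPM in hom stem and 147 to 745 in het stem libraries, and from 6421 to 15642 in hom TA and 7801 to 19237 in het TA libraries. Enteroendocrine markers (15 of 18) summed to 13.3 to 35.4 CPM in hom stem and 9.08 to 312.9 in het stem libraries, the highest being BN44, and to 72.4 to 551 in hom TA and 28.0 to 642 in het TA libraries. The hormone gene Gip was at 106 CPM in the TA library of hom animal BN45 and at 6.81 CPM or less in the other 15 libraries. Tuft markers (12 of 15) summed to 16.2 to 30.8 and 14.2 to 20.9 CPM in hom and het stem libraries, and to 10.5 to 54.2 and 7.96 to 20.7 CPM in hom and het TA libraries. Immune markers (8 of 17) summed to 292 to 868 and 323 to 503 CPM in hom and het stem libraries, and to 168 to 387 and 178 to 499 CPM in hom and het TA libraries, most of it Cd74, and Tyrobp had 0 counts throughout. Stromal and endothelial markers (3 of 12) summed to at most 15.7 CPM in any library, and 8 of the 12, among them Col1a1 and Col3a1, had under 10 counts in each. The part of these cell types in the differences above was not tested.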

How the data were processed

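RNA from sorted crypt cells was amplified as oligo-dT template-switch cDNA for 17 cycles, and 3 ng were tagmented, per the labels' protocols. The values are raw read counts per gene that the authors made with featureCounts 2.0.1 on mm10 with Ensembl 98, unstranded, paired, with a mapping quality of at least 1, per the file headers. Sources used here name no aligner version. The table holds 55421 genes and 92 ERCC sequences, which had at most 1 count and were left out. Counting was unstranded, so overlapping genes on opposite strands cannot be told apart.

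From these counts the difference was fitted with edgeR 4.0.16 (R 4.3.3; TMM, filterByExpr, robust quasi-likelihood F test, 6 residual degrees of freedom) with terms for animal, fraction and the interaction of fraction and genotype, and p-values were adjusted over all 17777 genes. The labels give the animal of each library. Stem and TA libraries of the same animal deviated together from their group means (correlation 0.287 to 0.647 over 10365 genes, above 0.1 in 8 of 8 animals). Effects within a fraction came from the fit without the block, and differences per animal from log2 CPM with a prior count of 2. Alternatives used limma 3.58.1 and DESeq2 1.42.0. The correction for transcript length (median over GENCODE M21 basic transcripts) and GC content, a loess offset with spans of 0.2 and 0.5, was added after seeing the data. Genes named were the 12 of smallest p in each direction with a mean of at least 5 CPM and an ordinary symbol, up to 3 members of smallest p per list, and a set of genes always given. The comparison and the 28 gene lists were chosen with earlier results of these data known. The scripts were tested on simulated counts, with 100 genes changed by a log2 difference of 1 in size and 100 by 2. There edgeR with the animal block called 33% and 79% of these, with 4 false calls of 116. DESeq2 with the block called 58% and 96%, with 60 false calls of 214.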

Additional observations from a re-analysis of the deposited data

Results flagged for a closer look

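In 6 of 92 groups of 4 animals, the stem minus TA difference (log2) of 1 animal lay far from the other 3 by Dixon's criterion for outliers, which chance gives in about 1 of 20 groups. Hom animals stood apart for Cbr4 (BO25 at 0.016, the others from -1.38 to -1.17), Cdkn1a (BP04 at -1.33, the others from -1.63 to -1.58) and Zfp975 (BO25 at 2.00, the others from 1.39 to 1.45). Het animals stood apart for Anxa3 (BP03 at -3.89, the others from -2.56 to -2.42), Kpna1 (BO27 at -0.69, the others from -0.31 to -0.25) and Ubxn7 (BO58 at -1.45, the others from -0.56 to -0.49).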

How the results depend on the processing

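Without the replicate block, edgeR also called 0 genes, with 924 at an unadjusted p below 0.05 and a smallest adjusted p of 0.316. DESeq2 with the block called 111 genes with a positive and 235 with a negative difference, with a median transcript length of 2684 and 537 bases, against 2099.5 over all genes tested. All other alternatives called 0 genes: limma on voom values (1638 at an unadjusted p below 0.05), limma on differences per animal (1815), all 24 libraries without (756) and with the block (741), RLE scaling (1648), library totals (1635), mitochondrial genes left out (1602), no filter (1794), a mean of at least 5 CPM (1258 of 10363 genes, smallest adjusted p 0.0544) and the length and GC correction (1328). With each animal left out in turn, 0 genes were called, 1391 to 1701 were at an unadjusted p below 0.05, and the smallest adjusted p ran from 0.16 to 0.474. Of 111 named genes, 9 changed sign under some alternative, none of them among the 24 leading genes. DESeq2 called 42 of the named genes, against 111 with a positive and 235 with a negative difference of all 17777 tested. Most named genes were chosen by a small p in these same data, which favours both stable signs and such calls. Of 28 list medians, 8 changed sign: goblet, tuft, enteroendocrine and immune markers, p53 targets, fatty acid oxidation, mitochondrially encoded and MHC class II genes. With each animal left out in turn, the medians of ribosomal, mitochondrial ribosomal, oxidative phosphorylation, unfolded protein response and stem marker genes moved by less than 1.5 times, and those of the other lists by more for at least 1 animal. The enteroendocrine median was -1.84, and 0.35 without het replicate 1 (BN44). Olfm4, Coq9, Ephx1, Lyz1 and Clu were among the 9 genes. Lyz1 stood at 0.53 without hom replicate 1 (BN45), and Clu at -0.65 without het replicate 4 (BP03). The cause of these changes was not tested.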

Other observations

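Other lists covered metabolism and signalling. Genes of cholesterol synthesis had positive differences in 16 of 24 (median 0.15), and those of fatty acid oxidation and PPAR signalling in 17 of 36 (median -0.02). For coenzyme Q, lipoate and mitochondrial fatty acid synthesis the count was 14 of 23 (median 0.12), and for mitochondrially encoded genes 7 of 15 (median -0.11). Interferon response genes were positive in 19 of 31 (median 0.19), 4 of them at an unadjusted p below 0.05 (3.95% over all genes). Their median ran from 0.08 to 0.31 when each animal was left out in turn: it was 0.31 without BO25, 0.09 without BO57, 0.08 without BP04 and 0.08 without BP03. Immediate early genes were positive in 21 of 30 (median 0.19) and MHC class II genes in 6 of 8 (median 0.09). No member of these lists passed the edgeR threshold.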
